A study of Mus musculus with 15 samples.

Results

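The 10 genes described here encode the route by which a fibroblast takes up glucose and turns it into lactate, together with a pair of proteins that restrain uptake. They are *Slc2a1*, *Hk1*, *Hk2*, *Pfkp*, *Pfkfb3*, *Pgk1*, *Ldha*, *Slc16a3*, *Txnip* and *Arrdc4*. They were chosen by name from the known pathway, out of 55266 genes in the files, with earlier results of these data known. RNA was measured in 15 libraries of the mouse fibroblast line NIH3T3, in 5 groups of 3 libraries. In 4 groups the cells carried H2A-mCherry, a fluorescent histone fusion that serves as the control. They were left without PDGF, given PDGF, given PDGF with rapamycin, or given PDGF with cycloheximide. In the fifth group the cells carried H2A-TerminaTOR, a genetically encoded inhibitor of the kinase complex mTORC1 that the histone part places in the nucleus, and received cycloheximide and PDGF. Both fusions were stably integrated and doxycycline-inducible, and both lines were starved before PDGF, which is a mitogen for such cells. Rapamycin is a drug against mTORC1 that is not restricted to the nucleus. Cycloheximide stops protein synthesis. The sources used here give no dose, no time and no number of clones behind each line, and no library had TerminaTOR without cycloheximide.

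Glucose enters a fibroblast mainly through the transporter GLUT1, is trapped by hexokinase, is committed to glycolysis at the phosphofructokinase step, and leaves as lactate. The alpha-arrestins TXNIP and ARRDC4 hold transporters away from the plasma membrane, and the glucose-sensing factor MondoA with its partner MLX activates both of their genes. Growth factor signalling through mTORC1 is known to raise transporter and enzyme genes by way of HIF1 and MYC.

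How many reads a gene received here depended on how it is annotated as well as on its expression. The deposited counts are per transcript, and reads that could belong to more than 1 transcript appear to be largely missing from them. No protein-coding gene out of 954 without a base exclusive to a single coding transcript had a mean of 10 reads on its coding transcripts. The same was true of all but 1 of 1674 genes with 1 to 50 such bases, whereas 5793 of 16768 genes with more than 200 reached that mean. *Txnip* has 28 exclusive coding bases in a main transcript of 2827 bases, and it received 6 reads in all 15 libraries. *Hk2* has 2228 in *Hk2-201* and received 9438 reads, 99.84% of them on that transcript, and *Arrdc4* has 2910 in *Arrdc4-201* and received 13533, 99.71% on it. Levels of different genes can therefore not be compared with each other here.

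**Figure D1:**
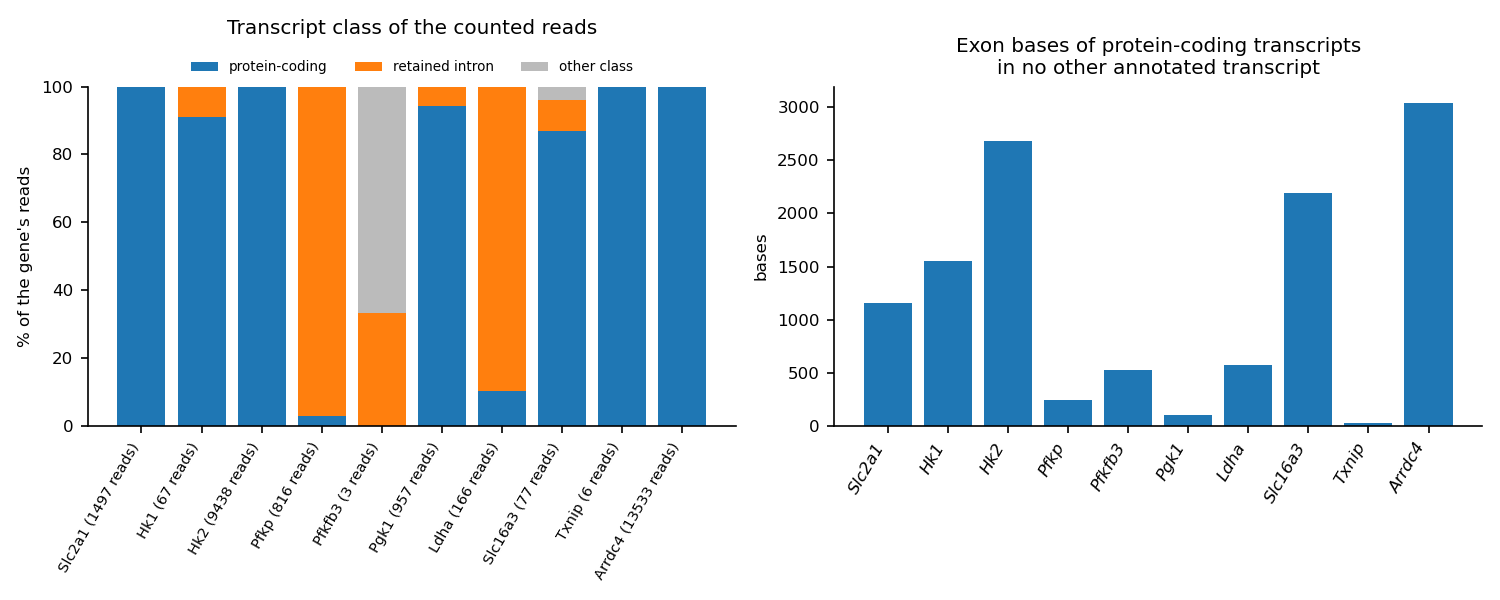
Reads counted for each of the 10 genes, split by the annotated class of the transcript that received them, and the number of bases exclusive to a single coding transcript. *Arrdc4* and *Hk2* hold most reads and their reads lie on coding transcripts, whereas those of *Pfkp* and *Ldha* lie mostly on transcripts annotated as retained introns.

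Of the 10 genes, 6 had enough reads to be tested: *Slc2a1*, *Hk2*, *Pfkp*, *Pgk1*, *Ldha* and *Arrdc4*. *Hk1*, *Pfkfb3*, *Slc16a3* and *Txnip* did not pass the filter on low counts, and only their reads are given. Libraries held between 3466202 and 6777780 counts. Mitochondrially encoded genes took 11.1% to 12.2% of counts without PDGF, 8.69% to 9.29% with PDGF, 9.84% to 11.0% with rapamycin, and 6.27% to 6.64% in the libraries with cycloheximide of either line. At least 8 of 9 fibroblast markers had over 10 reads in each group, and their summed level was 4643 to 5027 CPM (reads relative to the scaled total of a library) with rapamycin and 7312 to 9149 elsewhere. Most of that sum came from the collagen genes *Col1a1* and *Col1a2*, with 272086 and 166007 reads over all 15 libraries. Summed macrophage markers (6 listed, 2 or 3 of them with over 10 reads in a group) ran from 6.72 to 11.3 CPM without PDGF and from 16.0 to 26.1 CPM in the other groups, and those of epithelium and endothelium stayed at or below 4.39 CPM. Among markers of other cells, the macrophage gene *Adgre1*, the epithelial genes *Epcam* and *Krt18* and the adipocyte gene *Plin1* were at 0 in every library. The most read of those markers were the macrophage genes *Cd14* (853 reads over all 15 libraries) and *Lyz2* (225). The endothelial gene *Cdh5* (140) and the epithelial gene *Krt8* (115) came next. The part that these shifts play in the results below was not tested, and in bulk RNA fewer cells expressing a gene and less RNA per cell cannot be told apart.

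*Slc2a1*, which encodes GLUT1 (ENSMUSG00000028645.11, GRCm38 chromosome 4, 119108711 to 119137983, plus strand), rose with PDGF and stood higher still with rapamycin or cycloheximide. Its level in CPM, after TMM scaling (the trimmed mean of M-values, which sets libraries to a common scale), was 1.27, 4.80 and 4.30 in the 3 libraries without PDGF and 14.9, 14.7 and 15.7 after its addition. With rapamycin and PDGF it was 24.8, 28.0 and 19.2, and with cycloheximide and PDGF it was 29.2, 37.1 and 34.4. In TerminaTOR cells with cycloheximide and PDGF the level was 34.7, 36.2 and 37.8. The starved, PDGF and rapamycin groups did not overlap, and the TerminaTOR libraries overlapped their cycloheximide controls. PDGF raised *Slc2a1* 4.44-fold, a log2 change of 2.15 ± 0.26 (SE) with an adjusted p of 8.65e-11 by the edgeR quasi-likelihood test used throughout. Here 3 of the 6 tested genes were called higher and 1 lower with PDGF at an adjusted p under 0.05, when 37.0% of the 10603 tested genes were called, 20.1% higher and 16.9% lower.

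Rapamycin raised *Slc2a1* above PDGF alone by 0.65 ± 0.20 on the log2 scale (1.57-fold, adjusted p = 0.00842, edgeR). Without the second rapamycin library this change was 0.53, with an adjusted p of 0.0668, so the call rests on that library. Among the tested genes 2 were called higher and 1 lower with rapamycin, against 32.3% of all tested genes called (16.3% higher, 16.1% lower). Cycloheximide raised *Slc2a1* by 1.14 ± 0.19 (2.21-fold, adjusted p = 9.25e-07, edgeR). In that comparison 2 of the 6 genes were called higher and 3 lower, and 40.6% of all tested genes were called (21.0% higher, 19.6% lower). The group means ran from 3.46 ± 1.91 CPM (SD, n = 3) without PDGF through 15.1 ± 0.548 with PDGF, 24.0 ± 4.43 with rapamycin and 33.5 ± 4.02 with cycloheximide to 36.2 ± 1.58 in TerminaTOR cells, and the last pair lay within their spread. Both comparisons are made against the same 3 PDGF libraries, and the PDGF response uses them too. On *Slc2a1-201*, the transcript with 86.71% of the gene's reads, 909 bases are exclusive.

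**Figure D2:**
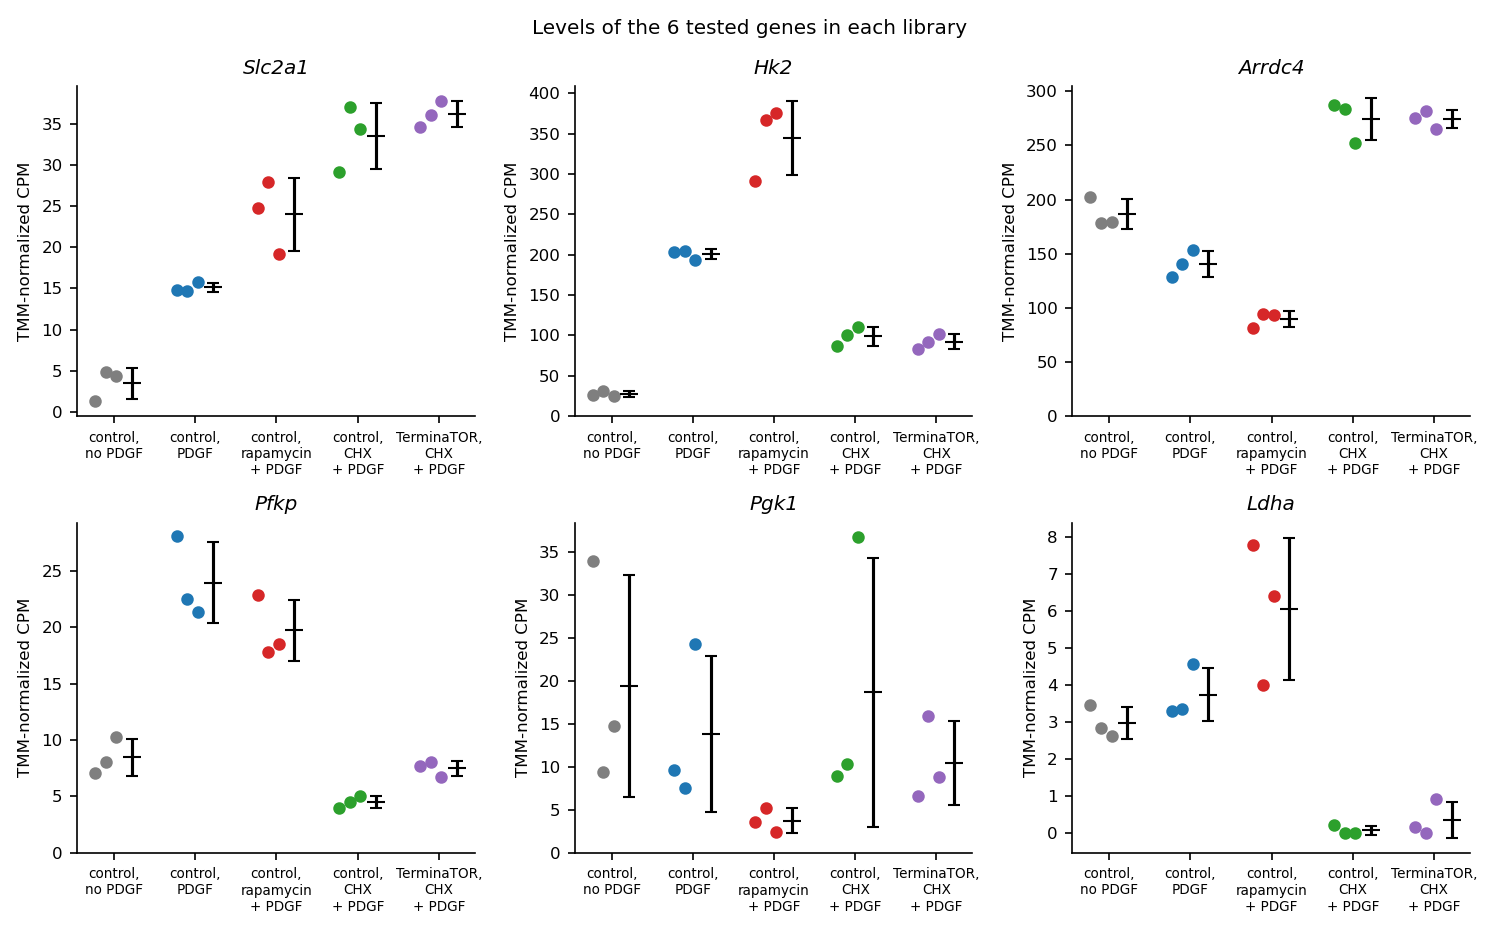
TMM-normalized CPM of the 6 tested genes in each of the 15 libraries (points), with the mean and SD of each group of 3. *Slc2a1* rises from 3.46 to 15.1 CPM with PDGF, *Hk2* is highest with rapamycin and PDGF (345 CPM), and *Arrdc4* is lowest there (89.9 CPM).

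*Txnip* (ENSMUSG00000038393.14, chromosome 3, 96557957 to 96561883, plus strand), the alpha-arrestin that also binds thioredoxin, had 0 reads without PDGF, 2 with PDGF, 0 with rapamycin, 4 with cycloheximide and 0 in TerminaTOR cells, each summed over 3 libraries. All 6 reads were on *Txnip-202*. A count of 0 over the group without PDGF allows a level of up to 0.194 CPM on this scale, for counting error only. The ratio of cycloheximide to PDGF was 1.76 with an exact 95% interval of 0.252 to 19.5. A change of *Txnip* was not detectable in these counts, and its order across the groups is not known from them.

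*Arrdc4* (ENSMUSG00000042659.15, chromosome 7, 68736995 to 68749241, minus strand), the close relative of *Txnip* that was well counted, fell with PDGF, fell further with rapamycin and rose with cycloheximide. Its level was 203, 178 and 179.7 CPM without PDGF and 129, 140.3 and 153 CPM with PDGF. With rapamycin and PDGF the 3 libraries stood at 81.3, 94.4 and 93.8 CPM. With cycloheximide and PDGF they stood at 288, 284 and 252 CPM in control cells and at 275, 282 and 265 CPM in TerminaTOR cells. No library with rapamycin reached the lowest library with PDGF alone, and the control and TerminaTOR libraries with cycloheximide overlapped. PDGF lowered *Arrdc4* 1.32-fold (log2 change −0.41 ± 0.08, adjusted p = 1.46e-05, edgeR), and rapamycin lowered it a further 1.57-fold (−0.65 ± 0.08, adjusted p = 1.36e-09, edgeR). Cycloheximide raised it 1.94-fold over PDGF (0.96 ± 0.08, adjusted p = 1.46e-17, edgeR).

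From lowest to highest, the group means of *Arrdc4* ran from rapamycin with PDGF (89.9 ± 7.39 CPM, SD, n = 3) through PDGF (141 ± 12.2) and no PDGF (187 ± 13.8) to TerminaTOR with cycloheximide (274 ± 8.30) and control with cycloheximide (275 ± 19.7). Only the last pair of neighbours lay within their spread. Against starved cells the rapamycin group was lower by −1.06 ± 0.08 on the log2 scale (adjusted p = 1.18e-18, edgeR). In that comparison 3 of the 6 tested genes were called higher and 2 lower, and 53.3% of all tested genes were called (27.8% higher, 25.5% lower). The cycloheximide group was 0.55 ± 0.07 above starved cells (adjusted p = 2.35e-09, edgeR), but with scaling by library size in place of TMM that difference was 0.16, with an adjusted p of 0.0521. There, too, 3 of the 6 genes were called higher and 2 lower, against 47.4% of all tested genes (24.6% higher, 22.8% lower).

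*Hk2*, the inducible hexokinase that binds mitochondria (ENSMUSG00000000628.10, chromosome 6, 82725025 to 82774454, minus strand), had the largest called PDGF response of the 6 tested genes. Its level was 26.2, 31.4 and 25.2 CPM in the libraries without PDGF and 204, 205 and 194 CPM in those with PDGF. With rapamycin and PDGF it was 292, 367 and 376 CPM. With cycloheximide and PDGF it was 86.9, 100.1 and 110.2 CPM in control cells and 83.2, 91.8 and 102 CPM in TerminaTOR cells. The 4 control-cell groups occupied separate ranges, and the TerminaTOR libraries overlapped the cycloheximide controls.

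PDGF raised *Hk2* 7.30-fold (log2 change 2.87 ± 0.10, adjusted p = 4.78e-33, edgeR). Rapamycin raised it another 1.72-fold (0.78 ± 0.09, adjusted p = 2.22e-11), and cycloheximide lowered it 2.03-fold from the PDGF level (−1.02 ± 0.09, adjusted p = 8.70e-15). With cycloheximide *Hk2* was still 1.85 ± 0.11 above starved cells on the log2 scale (adjusted p = 5.57e-23), and with rapamycin it was 3.65 ± 0.10 above them (adjusted p = 3.36e-39). The order of its levels was no PDGF (27.6 ± 3.33 CPM, SD, n = 3), TerminaTOR with cycloheximide (92.3 ± 9.35), control with cycloheximide (99.1 ± 11.7), PDGF (201 ± 5.97) and rapamycin (345 ± 46.1). The TerminaTOR and cycloheximide groups were the pair of neighbours that lay within their spread. *Hk1*, the constitutive hexokinase (ENSMUSG00000037012.18, chromosome 10, 62268855 to 62379908, minus strand), had 67 reads in all, with 22, 9, 6, 18 and 12 in the groups in the same order as for *Txnip*, and no library had more than 14.

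The promoters of the genes with a clear response, and of *Txnip*, are shown because the factors named in the background recognise short motifs in them. The sequences are RefSeq's for GRCm38.p6, 5′ to 3′ on the gene's strand, from 200 to 21 bases before the annotated start, with the motif in capitals. The motifs searched on both strands, in windows of 250 bases before to 50 after the start, were the E-box CACGTG, the spaced carbohydrate response pattern and the hypoxia core ACGTG, which lies within CACGTG. All 10 genes matched the table.
Slc2a1, chr4:119108545-119108724, plus strand: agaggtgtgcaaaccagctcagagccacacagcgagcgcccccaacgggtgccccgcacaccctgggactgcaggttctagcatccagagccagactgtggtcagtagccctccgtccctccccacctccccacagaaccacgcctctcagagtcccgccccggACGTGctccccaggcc
Hk2, chr6:82774475-82774654, minus strand: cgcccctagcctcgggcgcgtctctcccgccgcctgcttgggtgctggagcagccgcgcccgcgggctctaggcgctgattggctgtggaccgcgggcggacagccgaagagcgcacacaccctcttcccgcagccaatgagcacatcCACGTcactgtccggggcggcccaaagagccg
Arrdc4, chr7:68749259-68749438, minus strand: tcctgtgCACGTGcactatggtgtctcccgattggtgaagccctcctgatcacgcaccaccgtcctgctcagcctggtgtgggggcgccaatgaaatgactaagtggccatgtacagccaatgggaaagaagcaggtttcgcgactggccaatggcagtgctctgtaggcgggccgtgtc
Txnip, chr3:96557757-96557936, plus strand: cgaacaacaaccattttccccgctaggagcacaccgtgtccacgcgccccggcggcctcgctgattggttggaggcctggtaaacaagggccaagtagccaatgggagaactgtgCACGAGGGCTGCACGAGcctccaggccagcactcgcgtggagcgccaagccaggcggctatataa
Positions are those of the motif's first base relative to the start. In *Slc2a1* the capitals mark an ACGTG core at −36, and in *Hk2* the same core read on the other strand at −52. In *Arrdc4* they mark a full E-box at −193, and in *Txnip* the spaced pattern at −85. The E-box was found in 3 of the 13 windows of the 10 genes (*Arrdc4*, *Ldha* and *Pfkfb3*) and in 7.15% of all 32851 windows. The spaced pattern was found in 1 of the 13, that of *Txnip*, and in 0.365% of all windows, and the ACGTG core in 9 of the 13 and in 19.6%. These are matches of letters and not measured binding.

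*Pfkp* encodes the platelet form of phosphofructokinase, which commits sugar to glycolysis (ENSMUSG00000021196.14, chromosome 13, 6579768 to 6648777, minus strand). Of its 816 reads 97.1% lay on transcripts annotated as retained introns, 90.93% on *Pfkp-212* alone, and 24 on coding transcripts, so its values describe those retained-intron bases. The level was 7.09, 8.07 and 10.3 CPM without PDGF and 28.1, 22.5 and 21.3 CPM with PDGF. With rapamycin and PDGF it was 22.8, 17.8 and 18.5 CPM. With cycloheximide and PDGF it was 3.93, 4.54 and 4.99 CPM in control cells and 7.65, 8.06 and 6.71 CPM in TerminaTOR cells. The PDGF and rapamycin libraries overlapped, and all libraries with cycloheximide lay far below both. The 3 TerminaTOR libraries lay above the 3 cycloheximide controls and overlapped the starved cells.

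PDGF raised these *Pfkp* reads 2.81-fold (log2 change 1.49 ± 0.22, adjusted p = 6.22e-08, edgeR). Rapamycin made a difference of −0.27 ± 0.21 that did not pass the test (adjusted p = 0.350), and cycloheximide lowered them 5.29-fold (−2.40 ± 0.25, adjusted p = 4.45e-13). With cycloheximide the control cells were below starved cells by −0.91 ± 0.27 (adjusted p = 0.00354). *Pfkfb3*, which makes the allosteric activator of phosphofructokinase (ENSMUSG00000026773.19, chromosome 2, 11471433 to 11554077, minus strand), has 21 annotated transcripts and received 3 reads, none on a coding transcript. Its groups held 0, 1, 1, 0 and 1 reads, at or under the floor of 3 counts, and no fold is given.

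*Pgk1* encodes phosphoglycerate kinase, an ATP-making step of lower glycolysis (ENSMUSG00000062070.12, chromosome X, 106187100 to 106203699, plus strand). It had 957 reads, 94.25% of them on *Pgk1-201*, of which 101 bases are exclusive, and reads from processed copies of such a housekeeping gene may be among them. The level varied widely within groups: it was 34.0, 9.38 and 14.8 CPM without PDGF and 9.64, 7.50 and 24.2 CPM with PDGF. It was 3.62, 5.23 and 2.38 CPM with rapamycin, all below every other library of the series, and 8.89, 10.3 and 36.7 CPM with cycloheximide. TerminaTOR cells held 6.56, 15.9 and 8.85 CPM. The rapamycin difference from PDGF was −1.95 ± 0.91 on the log2 scale and did not pass the test (edgeR, adjusted p = 0.137), though it passed with DESeq2 (0.0391), with limma-voom (0.0476) and in a fit of the compared groups alone (0.00119). Against starved cells it was −2.42 ± 0.87 (adjusted p = 0.0367, edgeR), a call lost without the first starved library (0.138), without any 1 rapamycin library (0.0661 to 0.120) or with no filter on low counts (0.0892).

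*Ldha*, which converts pyruvate to lactate (ENSMUSG00000063229.15, chromosome 7, 46841475 to 46855627, plus strand), received 166 reads, 149 of them on retained-intron transcripts and none on its main coding transcripts *Ldha-201* and *Ldha-202*. *Ldha-201* has 0 exclusive bases and *Ldha-202* has 2, so these counts could hardly register either. The values of *Ldha* therefore describe mostly retained-intron bases, and the level of its main coding transcripts is not known from them. The libraries held 19, 13 and 14 of the 166 reads without PDGF, 12, 13 and 22 after PDGF, and 28, 13 and 27 where rapamycin was added. They held 1, 0 and 0 with cycloheximide and 1, 0 and 3 in TerminaTOR cells. The reads nearly vanished with cycloheximide, in both cell lines. With cycloheximide 1 read stood against 47 with PDGF, a ratio of 0.0187 after scaling (exact 95% interval 0.000464 to 0.110, edgeR adjusted p = 6.80e-07). The differences of 0.34 with PDGF (adjusted p = 0.629) and 0.69 with rapamycin (adjusted p = 0.286) did not pass the test, nor did the 1.03 ± 0.47 between rapamycin and starved cells (adjusted p = 0.0610), though that difference passed without the second rapamycin library (0.0347), with limma-voom (0.0223) and in a fit of the compared groups alone (0.0455). *Slc16a3*, the lactate exporter MCT4 (ENSMUSG00000025161.16, chromosome 11, 120948480 to 120960868, plus strand), had 77 reads, with 22 without PDGF, 7 with PDGF, 23 with rapamycin, 12 with cycloheximide and 13 in TerminaTOR cells.

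**Figure D3:**
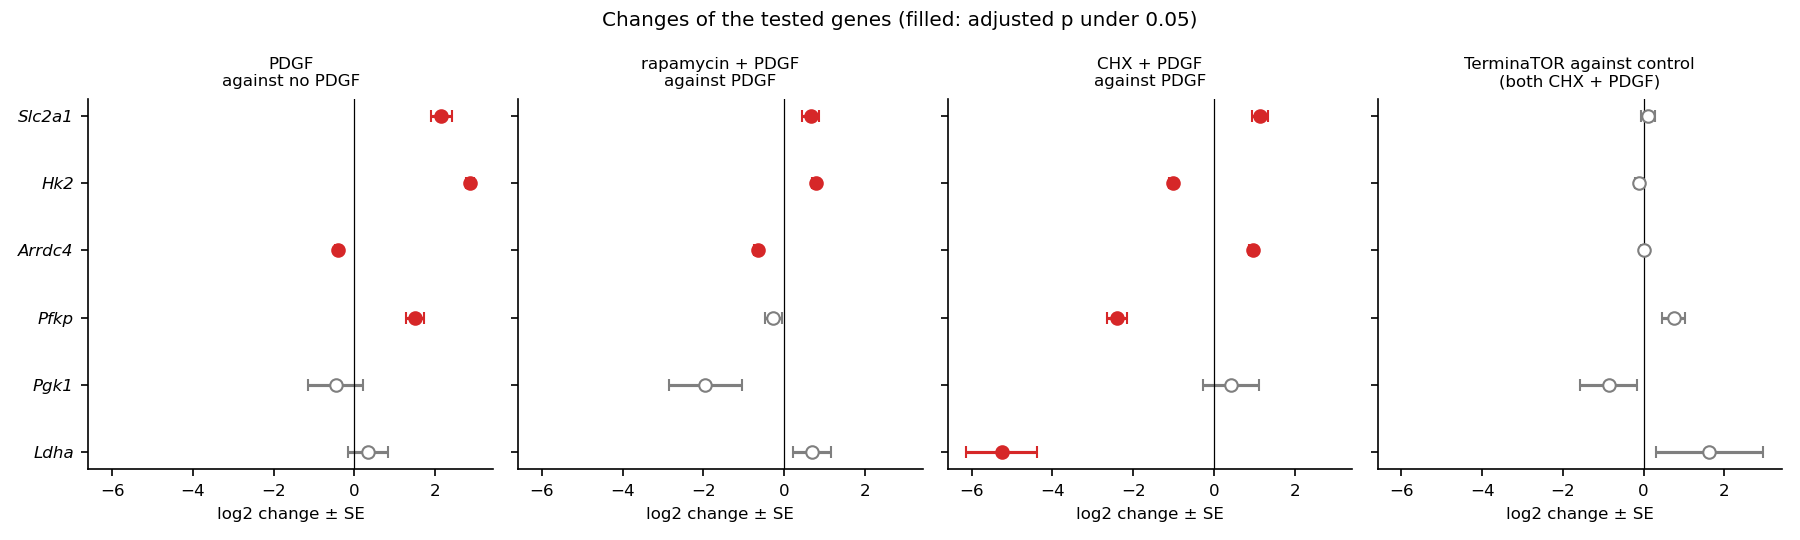
Log2 change ± SE of the 6 tested genes in the 4 main comparisons, with filled points for an adjusted p under 0.05. *Hk2* and *Slc2a1* lie above 0 and *Arrdc4* below it for both PDGF and rapamycin, and no point is filled for TerminaTOR.

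With translation blocked, TerminaTOR changed none of the 6 genes past the threshold, where 4.92% of all tested genes were called (2.35% higher, 2.57% lower). DESeq2 and limma-voom called 0 of them as well, and 1, *Pfkp*, had an unadjusted p under 0.05. The log2 differences were 0.11 ± 0.17 for *Slc2a1* (adjusted p = 0.831, edgeR), −0.11 ± 0.09 for *Hk2* (0.610), 0.74 ± 0.28 for *Pfkp* (0.117) and less than its SE for *Arrdc4* (0.998). *Pgk1* differed by −0.87 ± 0.71 (0.625), and *Ldha* by 4 reads against 1, a ratio of 3.79 with an exact 95% interval of 0.375 to 187 (0.595). The median change of the 6 genes was 0.05, against 0.00 for all tested genes. For the other comparisons the medians of the 6 were 0.91 with PDGF, 0.19 with rapamycin and −0.30 with cycloheximide, against −0.01, 0.02 and 0.01 for all genes.

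The TerminaTOR effect and the rapamycin effect were set against each other in the same fit, and they share no library. The difference, TerminaTOR minus rapamycin, was −0.89 ± 0.13 on the log2 scale for *Hk2* (adjusted p = 7.55e-08, edgeR) and 0.65 ± 0.11 for *Arrdc4* (adjusted p = 3.39e-06). For *Pfkp* it was 1.02 ± 0.35 (adjusted p = 0.0230), a call lost without the first PDGF library (0.0757), the first cycloheximide library (0.0722), the first or second TerminaTOR library (0.0552 and 0.0567), or with its transcripts tested as deposited (0.0740). For *Slc2a1* it was −0.54 ± 0.27 and did not pass (adjusted p = 0.138). So 2 of the 6 were called higher and 1 lower, against 24.0% of all tested genes (12.4% higher, 11.6% lower). TerminaTOR was measured only with cycloheximide and between the cell lines, and rapamycin only without cycloheximide and within the control line. The site of inhibition, the kind of inhibitor, the cell line and the block of translation therefore cannot be told apart in this difference.

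The rest of the pathway was followed through 76 further genes, of which 49 could be tested. In starved cells given PDGF 8 of the 49 rose and 13 fell, where 20.1% of all tested genes were called higher and 16.9% lower. *Slc16a1*, the transporter MCT1 that carries lactate and pyruvate, stood at 307 CPM in starved cells and rose to 1112 ± 17.2 CPM (SD, n = 3), a log2 change of 1.86 ± 0.06 (edgeR adjusted p = 3.58e-38). *Pdhb*, a subunit of pyruvate dehydrogenase, rose by 1.55 ± 0.31 (2.58e-05), and *Txn2*, mitochondrial thioredoxin, by 1.52 ± 0.22 (1.73e-08). Of the 8 tested regulators *Myc* rose by 1.90 ± 0.44 (0.000251). *Egln1* changed by −0.72 ± 0.09 (3.49e-10) and *Vhl* by −0.62 ± 0.10 (3.03e-07), and the other 5 were not called. Among other genes known as HIF1 targets, *Ddit4*, which encodes an mTORC1 inhibitor, rose by 1.72 ± 0.15 (9.68e-07) and *Adm*, which encodes the peptide adrenomedullin, fell by 2.14 on the log2 scale (SE 0.19, 1.69e-15). The median change of the 49 was −0.07.

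With rapamycin 2 of the 49 rose and 11 fell, where 16.3% of all tested genes were called higher and 16.1% lower, and the median change of the 49 was −0.16. At the phosphofructokinase step 3 of 5 tested genes fell and none rose, against the same 16.1% lower and 16.3% higher: *Pfkl*, the liver form of the enzyme, *Pfkfb2* (−0.85 ± 0.28, adjusted p = 0.0136, edgeR) and *Pfkfb1* (−1.99 ± 0.75, 0.0340), the latter pair bifunctional enzymes that set its activator. The *Pfkfb2* call was lost without the first PDGF or the third rapamycin library, and that of *Pfkfb1* without any 1 PDGF library, without the first or second rapamycin library, with DESeq2, with no filter and with transcripts as deposited. *Bpgm*, which makes bisphosphoglycerate, changed by −1.29 ± 0.31 (0.000668), *Ddit4* by −0.96 ± 0.14 (0.000208) and *Pdhb* by −0.94 ± 0.31 (0.0124), the last lost without the first or the third rapamycin library. *Adm* rose by 0.88 ± 0.22 (0.000747).

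With cycloheximide 13 of the 49 rose and 17 fell, where 21.0% of all tested genes were called higher and 19.6% lower, and the median change of the 49 was −0.12. In lower glycolysis 4 of 9 tested genes fell (*Eno1*, *Eno2*, *Gapdh* and *Pgam1*) and 2 rose, *Bpgm* by 0.79 and *Pgam2* by 0.55 on the log2 scale (edgeR adjusted p = 0.00662 and 0.0149). The enolase *Eno1* fell from 15.7 ± 1.86 to 0.936 ± 1.21 CPM (log2 change −3.94 ± 0.39, adjusted p = 4.79e-13, edgeR), and its paralog *Eno2* changed by −1.36 ± 0.22 (4.76e-07). *Slc16a1* fell by 1.79 (SE 0.06, 6.18e-37), back to 320.5 ± 24.3 CPM, and *Vegfa*, an angiogenic factor known as a HIF1 target, changed by −2.06 ± 0.36 (2.15e-06). *Vegfa* has 0 bases exclusive to a single coding transcript. Its 377 reads may thus lie mostly on non-coding transcripts of the gene, which was not examined. The transcript class of the reads was not examined for the other pathway genes either, *Eno1*, *Eno2* and *Gapdh* included. *Mpc1*, a subunit of the mitochondrial pyruvate carrier, rose by 1.77 ± 0.54 (0.00584). At the phosphofructokinase step 3 of 5 tested genes rose: *Pfkl* by 0.91 and *Pfkfb2* by 1.16 on the log2 scale (edgeR adjusted p = 3.79e-09 and 1.61e-05), and the sparsely counted *Pfkfb4* (adjusted p = 0.00639). *Pfkfb1* changed by −1.76 ± 0.70 (0.0374), a call lost without any 1 PDGF library, without the second or the third cycloheximide library, with DESeq2, with no filter and with transcripts as deposited.

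With TerminaTOR 2 of the 49 rose and none fell, with a median change of 0.08. That share is near the background, in which 2.35% of all tested genes were called higher and 2.57% lower. *Slc16a1* stood at 400.0 ± 16.4 CPM in TerminaTOR cells and at 320.5 ± 24.3 CPM in the cycloheximide controls (log2 change 0.32 ± 0.06, adjusted p = 0.000313, edgeR). *Bpgm* stood at 24.5 ± 4.63 CPM against 14.4 ± 2.93 CPM (0.75 ± 0.22, adjusted p = 0.0266), and this call was lost with DESeq2 (0.0512) and without the first or second cycloheximide control library or the second or the third TerminaTOR library (0.0584 to 0.233). *Hif1a* and *Mlxip*, which encode HIF1 alpha and MondoA, were called in none of the 4 main comparisons. Both were sparsely counted, with 123 and 207 reads over all libraries. A log2 change of 1.00 ± 0.57 for *Hif1a* with rapamycin against PDGF alone did not pass (adjusted p = 0.184, edgeR). *Mlx*, which has no exclusive base, and *Mlxipl* had 0 reads.

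**Figure D4:**
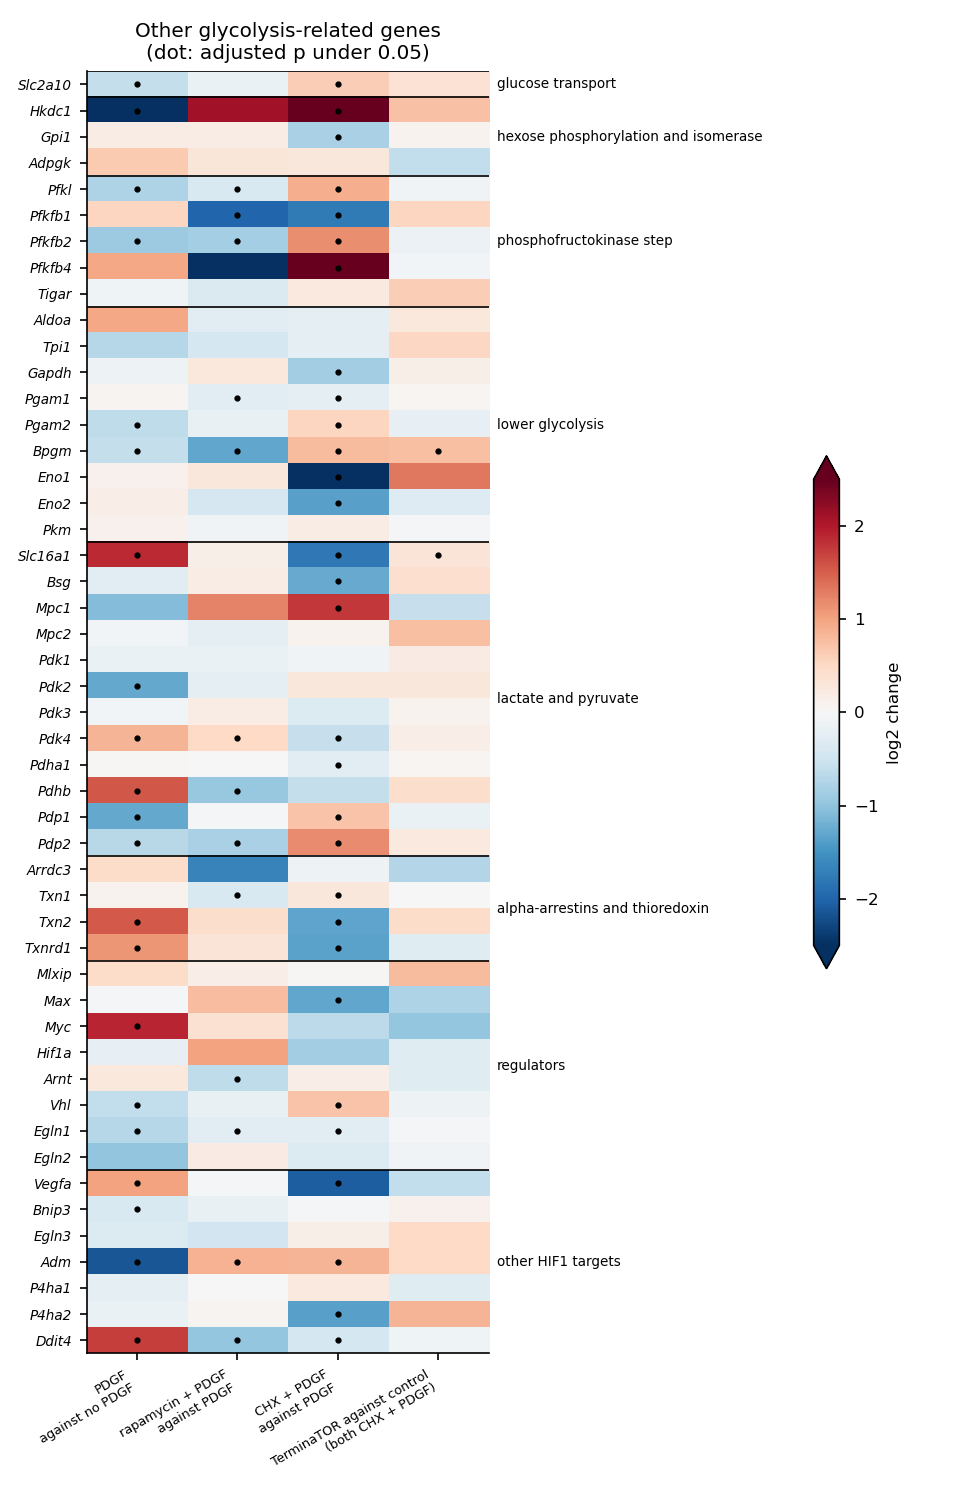
Log2 change of the 49 tested pathway genes (lines, grouped by role) in the 4 main comparisons (columns), with a dot where the adjusted p was under 0.05 and a colour scale that ends at −2.5 and 2.5. Calls are spread over most roles for PDGF, rapamycin and cycloheximide, and the TerminaTOR column holds 2 dots, *Slc16a1* and *Bpgm*.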

How the data were processed

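Messenger RNA was captured with oligo-dT from 1 µg of total RNA and sequenced from 15 libraries, per the labels' protocols. The deposited values are whole-number read counts per mouse transcript, not normalized. HISAT2 2.2.1, HTSeq 0.9.1, R 4.1.0 and the build hg38 are listed, per the submitters' processing notes. That build is human, although the identifiers are mouse, and the sources used here name no mouse build, strand setting or handling of shared reads. Of 142446 transcripts, 141536 matched the GENCODE M21 annotation of GRCm38, and the 910 others, with 0.0309% of counts, were not used.

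Each gene is the sum of its transcripts. edgeR 4.0.16 in R 4.3.3 tested the 10603 genes kept by filterByExpr, with TMM scaling, 1 fit of 15 libraries (10 residual degrees of freedom) and Benjamini-Hochberg adjustment, and a gene was called at an adjusted p under 0.05. The SE is the absolute log2 change over the square root of F. Where a group held 1 to 3 reads, a ratio with an exact 95% interval is given, which covers counting error only. DESeq2 1.42.0 and limma-voom 3.58.1, other filters, scaling and single libraries left out were the alternatives. The labels do not say that libraries came from separate cultures, so p-values measure only how these samples vary, which may be technical. The code was checked on simulated data for PDGF against no PDGF. It recovered 50% of simulated 2-fold changes and 82% of 4-fold changes, and 4.3% of its calls were false. A gene that was not called may therefore still have changed.

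The 10 genes, the pathway list and the markers were chosen with earlier results of these data known. All 10 genes are named. Of the pathway list, up to 6 called genes with the largest change and a mean log2 CPM of at least 1 are named per comparison, and further genes were picked after their values were seen.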

Additional observations from a re-analysis of the deposited data

Results flagged for a closer look

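For 3 genes the effect of TerminaTOR, measured with cycloheximide, differed from the effect of rapamycin, measured without it, in a test of the difference itself (edgeR). *Hk2*, the inducible hexokinase, gave −0.8933 on the log2 scale, from a rapamycin effect of 0.78 and a TerminaTOR effect of −0.11. *Arrdc4*, the alpha-arrestin, gave 0.6501, from a rapamycin effect of −0.65 and a TerminaTOR effect near 0. *Pfkp*, counted on retained-intron bases, gave 1.0181, from −0.27 and 0.74, neither of which passed its own test. All 3 libraries of each group lay on the stated side for the rapamycin effects of *Hk2* and *Arrdc4*. The block of translation and the cell lines compared differ between both effects, and their part was not tested.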

How the results depend on the processing

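No called change of the 6 tested genes or of the named pathway genes reversed. Changes that were not called could switch sign. That of *Pgk1* with PDGF was −0.47 in the main fit and 0.21 without the first starved library. Of 615 alternative values for the 42 gene-by-comparison results of the 6 genes, 597 kept their side of the threshold, 12 lost the call and 6 gained it. Of 554 for named pathway genes, 519 kept it and 35 lost it. The genes called for TerminaTOR numbered 522, and 804 in a fit of the compared groups alone. Leaving out 1 library gave 308 to 367. With scaling by library size the median change of all genes was −0.26 for PDGF, −0.10 for rapamycin, −0.13 for cycloheximide and 0.03 for TerminaTOR, against −0.01, 0.02, 0.01 and 0.00 with TMM, and the calls went from 2128 higher and 1794 lower to 1379 and 3111 for PDGF, from 1724 and 1706 to 1260 and 2265 for rapamycin, from 2231 and 2079 to 1713 and 2677 for cycloheximide, and from 249 and 273 to 321 and 210 for TerminaTOR. Among all results followed it changed the calls of *Arrdc4* for cycloheximide against no PDGF and of *Pdk4* for the difference of effects. Replicate numbers were shared between groups, but same-numbered libraries deviated together with a median correlation of 0.00795 over 30 pairs (−0.0396 to 0.076), and 8 of 15 correlated best with their own number. With the replicate number as a block, TerminaTOR called 563 genes, PDGF 3933, rapamycin 3444 and cycloheximide 4332, and no call of the 6 genes changed. *Txnip*, *Pfkfb3*, *Hk1* and *Slc16a3* had too few reads to be tested. Of these *Txnip* has 28 exclusive coding bases and the others have 525 to 2192, and why the others had few reads was not tested.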

Other observations

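The genes whose levels followed *Slc2a1* most closely over the 15 libraries were *Ccdc85b* (Pearson r = 0.965), *Btaf1* (0.961), *Socs3* (0.959), *Mcl1* (0.957) and *Aacs* (0.956), by log2 CPM among tested genes. *Socs3* is a feedback inhibitor of cytokine signalling and *Mcl1* a short-lived survival protein. For *Hk2* they were *Itprip* (0.994), *Inhba* (0.993), *Ywhag* (0.992), *Nufip1* (0.990) and *Nfe2l2* (0.989), and for *Arrdc4* they were *Ctif* (0.981), *Rab5b* (0.979), *Sertad3* (0.978), *Aox1* (0.977) and *Tmx4* (0.977). The lists for *Hk2* and *Arrdc4* were added after the values were seen. The libraries form 5 groups, which all of these genes share, and no p is given. *Txnip* had too few reads for such a list.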
